A study of Mus musculus with 6 samples.

Results

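Pld4 and 6 functionally linked genes of endolysosomal nucleic acid sensing and of the RP105 receptor were examined in mouse pro-B cells transformed with v-Abl, with and without tamoxifen. The 7 genes were Pld4, Pld3, Tlr7, Tlr9, Unc93b1, Cd180 and Ly86. They are 7 of 19937 genes that a table of the array platform paired with a single gene symbol. Each was read from 1 probe set, and none had a second one. Pld4 was chosen by its difference in intensity between tamoxifen and untreated cells, as its probe set had already passed the test in these data (limma adjusted p = 0.012 over 34760 probe sets), and the other 6 genes were added for their function with their values known. Its difference between the groups is therefore a description and supports nothing further.

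All 6 samples were total RNA of v-Abl transformed pro-B cells of strain C57/BL6 and genotype Foxo1f/f; ERCre, which carry loxP-flanked alleles of Foxo1 and Cre tied to an oestrogen receptor, which tamoxifen switches on. The 3 tamoxifen samples received 1 µM tamoxifen for 2 days and are described by the submitters as a Foxo1 knockout, and the 3 untreated samples received none and are described as WT although they carry the same alleles. The question of the comparison was which transcripts differ once the floxed alleles of Foxo1, a forkhead transcription factor of early B cells, are deleted. Cells with intact Foxo1 under tamoxifen were not analysed here, so the drug and the deletion cannot be told apart. The labels name no separate cultures for the replicates and no number of clones, so p-values cover the spread among these samples alone, and part of it may be technical.

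Foxo1 itself measured 116, 151 and 134 in the tamoxifen samples, against 806, 624 and 512 in the untreated samples, and its groups did not overlap. The sources used here do not say whether its probe set lies in the deleted part. Markers of the labelled cell type were bright: Vpreb1, a surrogate light chain of the pre-B cell receptor, measured 3467 ± 37.2 in tamoxifen cells and 3038 ± 221 in untreated cells (SD, n = 3 each), and all 11 measured B lineage markers lay above the median of all probe sets on every array. Array medians lay between 100.9 and 109.1 and lower quartiles between 43.3 and 47.3. Precision is limited by how few arrays there are. In bulk RNA, fewer cells that express a gene and less RNA per cell cannot be told apart.

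Toll-like receptors (TLRs) of the endolysosome recognise nucleic acids that reach this compartment. TLR7 responds to single-stranded RNA and TLR9 to DNA with unmethylated CpG motifs, and both depend on UNC93B1, a membrane protein that carries them from the endoplasmic reticulum to endolysosomes. PLD3 and PLD4 belong to the phospholipase D family by sequence but act in the endolysosome as exonucleases on single-stranded nucleic acids, and mice without them show excessive TLR9 and TLR7 responses. CD180, also called RP105, is a TLR-like receptor of the B cell surface without a TLR signalling domain, and it is displayed together with MD-1, the product of Ly86. PLD4 is known from B cells, plasmacytoid dendritic cells and microglia.

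Sequence from RefSeq (build GRCm38.p6) was found for the start regions of 5 of the 7 genes, Pld4, Pld3, Tlr9, Cd180 and Ly86. The 250 bases before the annotated start of 3 of them are shown, because Pld4 had the largest difference between the groups, Cd180 the next largest and Pld3 is the paralog of Pld4. They are written 5′ to 3′ on the strand of the gene. Capitals mark matches to the Ets motif GGAAGT and the E2A-type E-box CAGNTG, each searched on both strands, so that the E-box appears as CANCTG where it lies on the other strand. The windows are chr12:112760405-112760654 (+ strand) for Pld4, chr7:27553219-27553468 (- strand) for Pld3 and chr13:102693297-102693546 (+ strand) for Cd180, whose second annotated start lies 11 bases further on.
Pld4: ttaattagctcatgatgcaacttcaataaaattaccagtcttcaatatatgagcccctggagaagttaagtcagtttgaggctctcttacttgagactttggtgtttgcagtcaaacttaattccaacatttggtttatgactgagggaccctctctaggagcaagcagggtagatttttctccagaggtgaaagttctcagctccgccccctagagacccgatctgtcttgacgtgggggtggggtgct
Pld3: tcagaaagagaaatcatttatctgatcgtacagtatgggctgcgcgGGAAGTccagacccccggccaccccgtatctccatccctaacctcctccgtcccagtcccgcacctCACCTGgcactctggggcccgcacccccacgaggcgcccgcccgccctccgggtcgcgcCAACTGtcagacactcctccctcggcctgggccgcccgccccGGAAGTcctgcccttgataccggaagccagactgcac
Cd180: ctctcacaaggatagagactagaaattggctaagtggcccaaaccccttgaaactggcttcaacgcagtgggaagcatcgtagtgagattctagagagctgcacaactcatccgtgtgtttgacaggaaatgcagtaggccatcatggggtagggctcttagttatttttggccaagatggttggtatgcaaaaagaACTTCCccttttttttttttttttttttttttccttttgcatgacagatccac

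The FOXO motif GTAAACA, searched on both strands in the same 250 bases, was found in 0 of the 5 genes with sequence, whereas 3.17% of 32851 windows of this length in the RefSeq table hold it. The Ets motif was found in 2 of the 5, Pld3 at positions -204 and -37 and Cd180 at -53 from the first of its starts, counted back from the base before the start as -1, and 19.7% of all windows hold it. Its longer form GAGGAAGT, as bound by PU.1 and Spi-B, was found in 0 of the 5. In all windows its share was 2.44%, so no match is again the usual outcome. Every match to GAGGAAGT also holds GGAAGT. The E-box was found in 2 of the 5, Pld3 and Tlr9, and in 44.8% of all windows. A match describes letters only and is no site of binding, and a missing match says only that these letters are not in this window.

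Pld4, an endolysosomal exonuclease, had intensities of 365, 332 and 368 in tamoxifen samples 1, 2 and 3, against 137, 119 and 123 in untreated samples 1, 2 and 3. The lowest tamoxifen value was more than double the highest untreated value, and each group kept within a narrow range. The mean was 355 ± 19.9 in tamoxifen cells and 126 ± 9.31 in untreated cells (SD, n = 3 each), a ratio of 2.81. After quantile normalization the log2 fold change on the log2(value + 16) scale was 1.38 ± 0.08 (SE), the 7th largest rise of 34760 probe sets. This is the value that brought the gene in. With 1 array left out it lay between 1.34 and 1.44. The limma adjusted p passed 0.05 without untreated 1 (0.0276), and was between 0.0843 and 0.114 without tamoxifen 1, 2 or 3 or untreated 2 or 3.

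Pld3, the other exonuclease of this pair, measured 206, 184 and 197 in tamoxifen samples 1, 2 and 3, against 161, 166 and 172 in untreated samples 1, 2 and 3. The groups did not overlap, with 184 in tamoxifen 2 against 172 in untreated 3 as the nearest values, a gap about as wide as the range of the untreated samples. The mean was 196 ± 11.2 in tamoxifen cells and 166 ± 5.71 in untreated cells (SD, n = 3 each). The log2 fold change was 0.21 ± 0.06 (SE), with a 95% interval from 0.05 to 0.36, and the limma adjusted p = 0.745 did not pass.

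**Figure D1:**
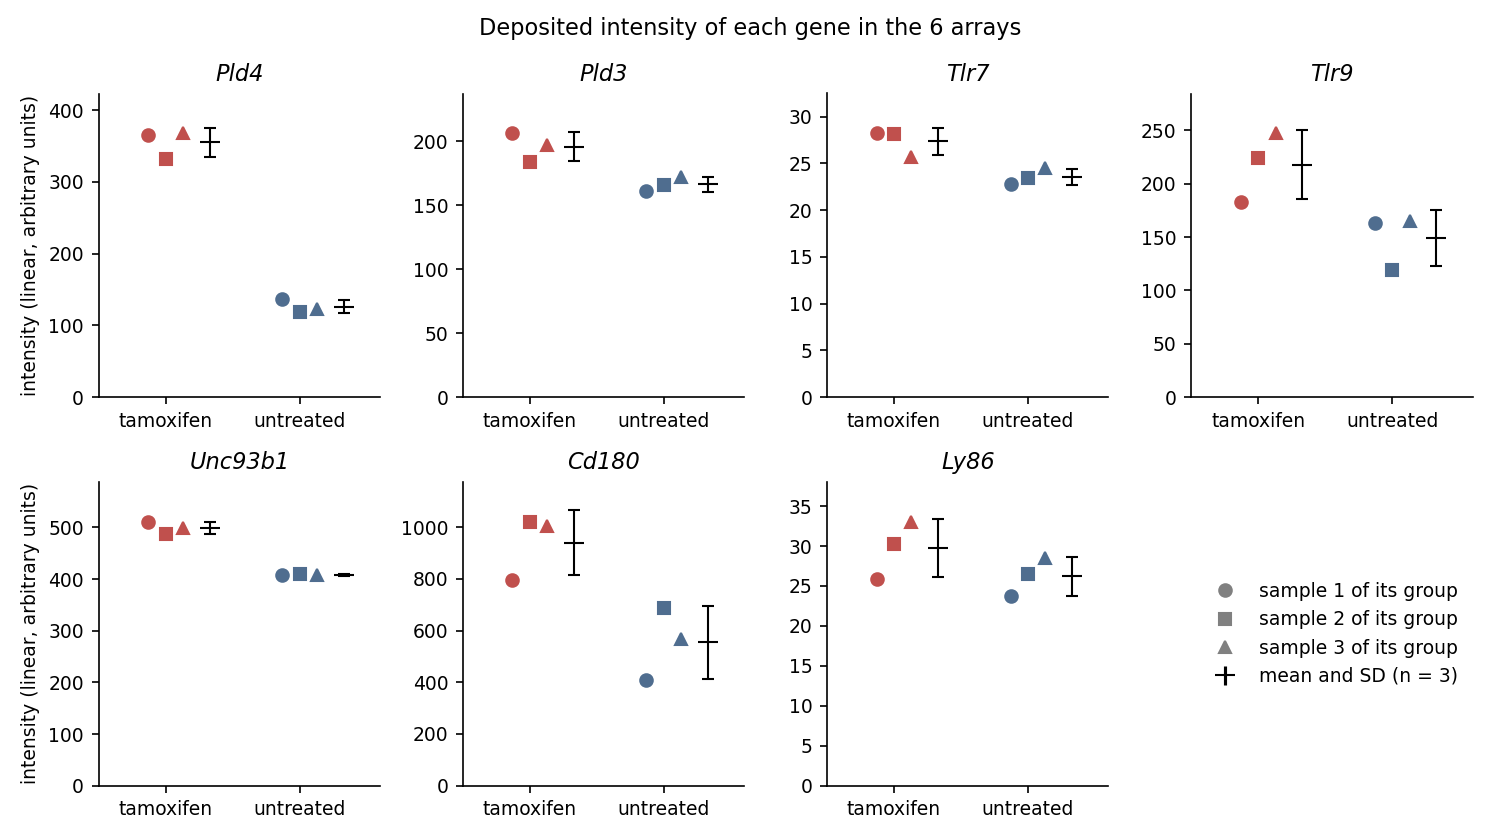
Deposited intensity (linear scale, arbitrary units, each axis from 0) of the 7 genes in the 3 tamoxifen and the 3 untreated arrays, with the mean and SD of each group. Pld4 stands at 332 to 368 in tamoxifen arrays against 119 to 137 in untreated arrays, and Ly86 is the gene whose groups overlap.

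Of the receptors, Tlr9 lay above the median of every array and Tlr7 below the lower quartile of every array. Tlr9 had intensities of 183, 224 and 248 in tamoxifen samples 1, 2 and 3, against 163, 119 and 165 in untreated samples 1, 2 and 3. Tamoxifen 1 lay close to the higher untreated samples, and untreated 2 stood below the other two. The mean was 218 ± 32.8 in tamoxifen cells and 149 ± 26.2 in untreated cells (SD, n = 3 each). The log2 fold change was 0.50 ± 0.16 (SE), with a 95% interval from 0.13 to 0.88 and a limma adjusted p = 0.745. It was 0.36 without untreated 2 and 0.61 without tamoxifen 1.

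Tlr7 measured 28.2, 28.2 and 25.7 in tamoxifen samples 1, 2 and 3, against 22.8, 23.4 and 24.5 in untreated samples 1, 2 and 3. The groups did not overlap, with 25.7 in tamoxifen 3 against 24.5 in untreated 3 as the nearest values, and at this brightness the presence of the transcript was not tested. The mean was 27.4 ± 1.43 in tamoxifen cells and 23.6 ± 0.86 in untreated cells (SD, n = 3 each). The log2 fold change was 0.14 ± 0.06 (SE), with a 95% interval from -0.01 to 0.28 and a limma adjusted p = 0.999. It was 0.21 with a pseudocount of 1 and 0.06 with a pseudocount of 64.

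Unc93b1, the chaperone of both receptors, kept to a narrow range within each group. Its intensities were 511, 488 and 499 in tamoxifen samples 1, 2 and 3, against 407, 411 and 408 in untreated samples 1, 2 and 3. The groups were clearly apart on the deposited scale, at 499 ± 11.5 in tamoxifen cells and 409 ± 1.81 in untreated cells (SD, n = 3 each). The log2 fold change was 0.26 ± 0.07 (SE), with a 95% interval from 0.10 to 0.41, and the limma adjusted p = 0.572 did not pass. On the normalized log2 scale used for the test, its SD was 0.05 among tamoxifen samples and 0.07 among untreated samples.

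Cd180, the RP105 receptor, had the second largest log2 fold change of the 7 genes and the widest spread. Its intensities were 797, 1022 and 1004 in tamoxifen samples 1, 2 and 3, against 409, 688 and 567 in untreated samples 1, 2 and 3. The groups did not overlap, but sample 1 was the lowest of each group and untreated samples alone spanned 409 to 688. The mean was 941 ± 125 in tamoxifen cells and 555 ± 140 in untreated cells (SD, n = 3 each). The log2 fold change was 0.75 ± 0.22 (SE), with a 95% interval from 0.23 to 1.27, and the limma adjusted p = 0.698 did not pass. Without untreated 1 it was 0.53, and without tamoxifen 1 it was 0.90.

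Ly86, which encodes the MD-1 partner of RP105, measured 25.9, 30.2 and 33.1 in tamoxifen samples 1, 2 and 3, against 23.7, 26.5 and 28.5 in untreated samples 1, 2 and 3. The groups overlapped, and all 6 values lay below the lower quartile of their array, as for Tlr7. The mean was 29.7 ± 3.61 in tamoxifen cells and 26.2 ± 2.43 in untreated cells (SD, n = 3 each). The log2 fold change was 0.12 ± 0.07 (SE), with a 95% interval from -0.06 to 0.29 and a limma adjusted p = 0.999. It was 0.07 without tamoxifen 3, 0.18 with a pseudocount of 1 and 0.06 with a pseudocount of 64.

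**Figure D2:**
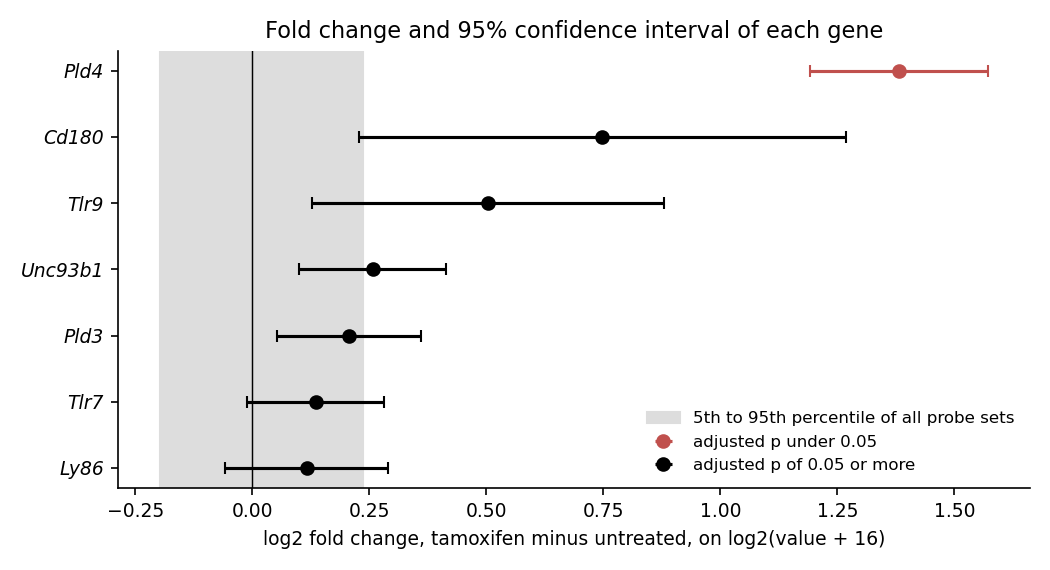
Log2 fold change (tamoxifen minus untreated, log2(value + 16) scale) of the 7 genes with 95% confidence intervals, over a band from the 5th (-0.20) to the 95th percentile (0.24) of all 34760 probe sets. Pld4 at 1.38 is the gene past the threshold, and the values of Pld3, Tlr7 and Ly86 lie inside the band.

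The 7 genes had positive log2 fold changes throughout, from 0.12 in Ly86 to 1.38 in Pld4, with a median of 0.26, against -0.01 over all probe sets, of which 46.1% were positive. Of the 7, 1 was past the threshold upward and 0 downward, where 0.0374% and 0.0201% of all probe sets were. An unadjusted p under 0.05 with a positive value was seen in 5 of the 7 genes (Pld4, Unc93b1, Cd180, Pld3 and Tlr9), against 2.97% of all probe sets. In 6 of the 7 genes all tamoxifen values lay above all untreated values, against 4.25% of all probe sets. The genes were chosen with these values known, so the counts describe them and nothing is read from the difference to the background. In all, 20 probe sets passed, 13 of them higher in tamoxifen cells. The higher calls were 12 of 14 with arrays scaled to a common median and 10 of 12 with no further normalization.

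No array was the lowest or the highest of its group in all 7 genes, on the deposited or on the normalized scale. On both scales tamoxifen 1 was the lowest tamoxifen array for Tlr9, Cd180 and Ly86 and the highest for Pld3 and Tlr7. For Unc93b1 it was the highest as deposited and the lowest after normalization. Untreated 1 was the lowest untreated array for 5 of the 7 genes as deposited and for 3 after normalization (Pld3, Cd180 and Ly86), and it was the highest for Pld4 on both scales. With any 1 array left out, the values of all 7 genes stayed positive. Groups that do not overlap, as in all of these genes but Ly86, leave little room for another outcome. For Ly86, whose groups overlap, the lowest value was 0.07, without tamoxifen 3.

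**Figure D3:**
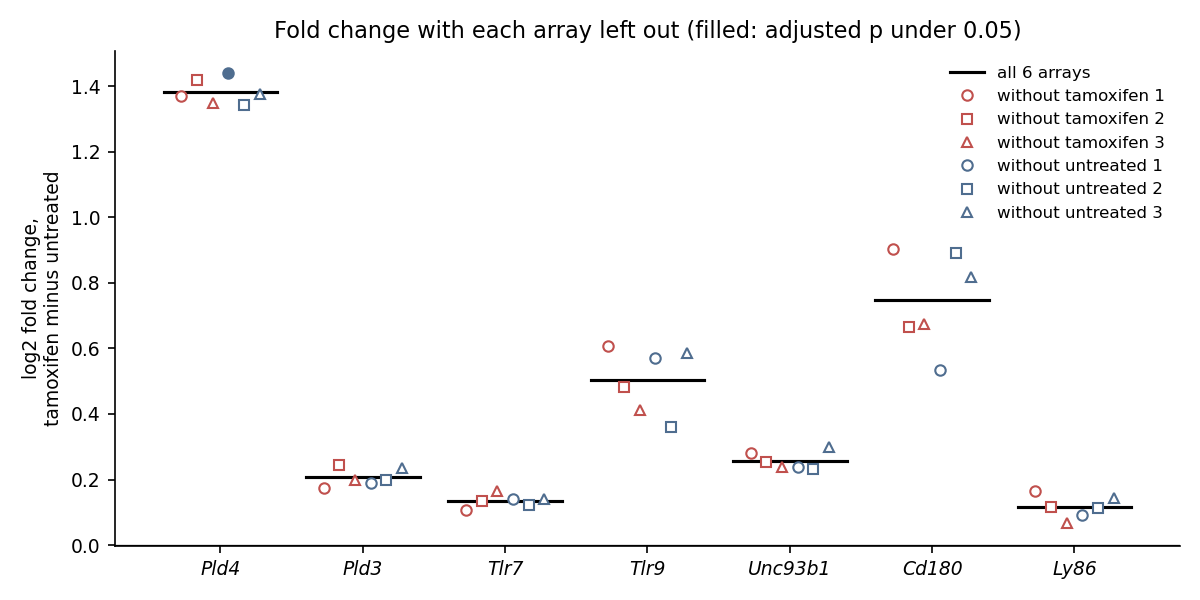
Log2 fold change (tamoxifen minus untreated) of the 7 genes in all 6 arrays (black line) and with each array left out in turn (symbols, filled where the limma adjusted p is under 0.05). Pld4 stays between 1.34 and 1.44 in these fits but is past the threshold in 1 of the 6, the one without untreated 1, and Cd180 runs from 0.53 to 0.90.

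The genes whose pattern over the 6 arrays was most like that of Pld4 were found by the root mean square difference of normalized log2 values, each centred on its own mean, among 10137 other named genes at or above the median of all probe sets. Nearest was Spib (0.07), an Ets-family transcription factor, then Ifi30 (0.10), a lysosomal thiol reductase, Bcar3 (0.11), an adaptor protein, and Lsp1 (0.20), which binds actin in leukocytes. The BAFF receptor gene Tnfrsf13c (0.22), Cd74, the invariant chain of MHC class II (0.23), Nucb2, a calcium-binding protein (0.24), and Ceacam2, an adhesion molecule (0.24), followed. Of these neighbours, Cd74, Nucb2 and Ceacam2 did not pass the test (limma adjusted p = 0.132, 0.0504 and 0.0732). Spib had intensities of 443, 383 and 385 in tamoxifen samples 1, 2 and 3, against 172, 143 and 150 in untreated samples 1, 2 and 3. Spib was thus highest in tamoxifen 1 and Pld4 in tamoxifen 3, while among untreated samples both were highest in untreated 1. Of the other 6 genes, Cd180 (0.45) and Tlr9 (0.47) lay nearest to Pld4, and Unc93b1 (0.57), Pld3 (0.60), Tlr7 (0.63) and Ly86 (0.64) lay further away. Likeness over these arrays is mostly likeness of the difference between the groups, so it describes the same contrast again.

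**Figure D4:**
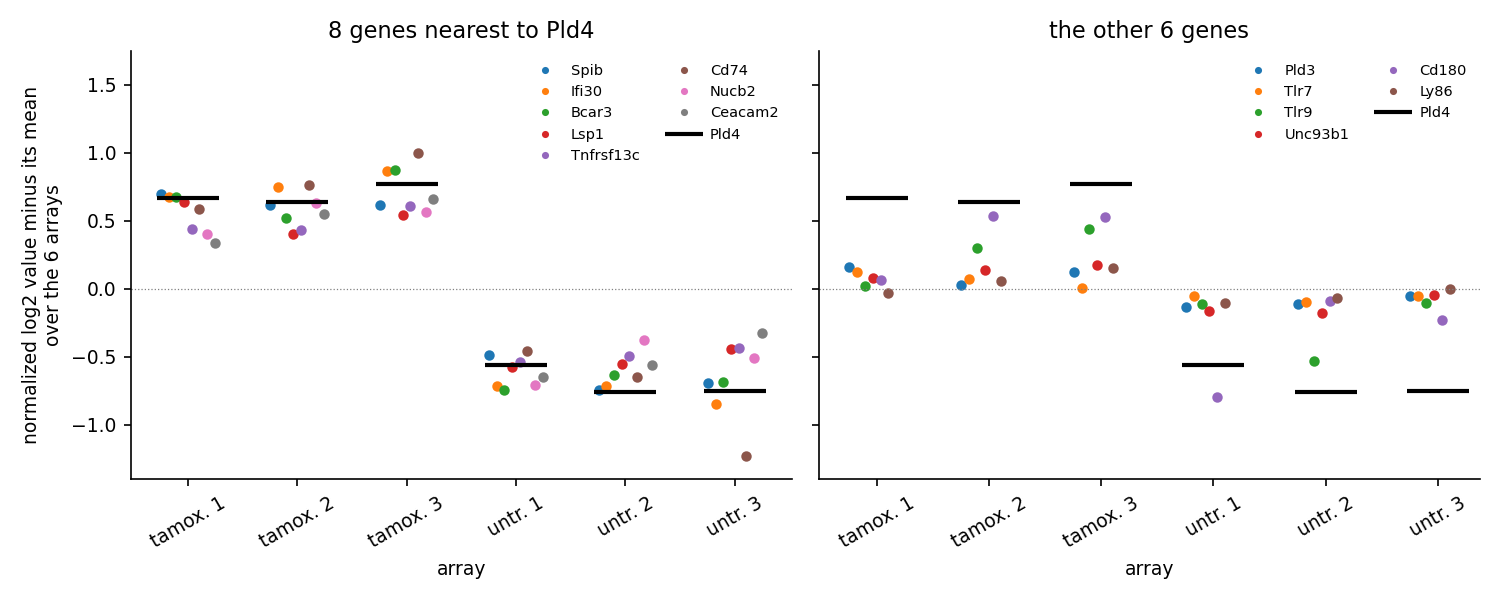
Normalized log2 value minus its mean over the 6 arrays, for the 8 genes nearest to Pld4 (left) and the other 6 genes of the group (right), with Pld4 as black bars. Spib lies close to Pld4 on every array, while the other 6 genes keep nearer to 0 except Cd180 in untreated 1.

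Other genes of the same pathways were taken from 7 lists with 104 measured members, chosen with earlier results of these data known. In 6 of the lists limma called 0 of 92 genes over all probe sets, while 7 had an unadjusted p under 0.05 with a positive value and 1 with a negative value, which 2.97% and 2.14% of all probe sets had. The calls in the remaining list, of transcription factors, were 3 of 12. They were Spib (1.29 ± 0.08 SE), Bcl11a, a zinc finger factor of early lymphoid cells (0.84 ± 0.08 SE), and Ets1, a lymphoid Ets factor (0.72 ± 0.07 SE), and all had been called before the list was drawn up. Irf8, which is needed for plasmacytoid dendritic cells and acts in B cells, measured 0.09 ± 0.09, the related Irf4 -0.16 ± 0.11, Spi1, which encodes PU.1, 0.15 ± 0.08, and Tcf4, an E protein, -0.10 ± 0.07 (log2 fold change, SE).

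Among the remaining endolysosomal TLRs and the proteins that process and move them, 12 of 16 log2 fold changes were positive with a median of 0.01, and none passed. Tlr3, Tlr8 and Tlr13 were below the lower quartile on every array, as Tlr7 was, and measured 0.01, 0.01 and -0.04. Ctss, which encodes cathepsin S, a protease that cleaves TLR9 and the MHC class II invariant chain, had intensities of 2893 ± 164 in tamoxifen cells and 2176 ± 121 in untreated cells (SD, n = 3 each), with no overlap between the groups. Its log2 fold change was 0.41 ± 0.08 (SE, limma adjusted p = 0.308). Cnpy3, a chaperone that TLRs need for folding, measured 0.22 ± 0.09, and Ap3d1, a subunit of the AP-3 adaptor of endosomal sorting, 0.17 ± 0.08 (log2 fold change, SE). Hsp90b1, the chaperone gp96 that works with Cnpy3, was bright and measured 0.01 ± 0.06.

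No gene of the nuclease list passed the test. The list also held other members of the phospholipase D family and the phosphatase gene Acp5, and did not hold Pld3 or Pld4. Of its 13 measured genes 6 were positive and 7 negative (median -0.02, range -0.17 to 0.12). Limma called none of them, with 0 at an unadjusted p under 0.05 in either direction. The phospholipases Pld1 and Pld2 measured -0.13 ± 0.12 and -0.10 ± 0.11, and Pld5 -0.10 ± 0.06 (log2 fold change, SE). Pld6, a mitochondrial member of the family, measured 0.02 ± 0.06. The DNases Dnase2a, of lysosomes, and Trex1, of the cytosol, measured 0.03 ± 0.08 and 0.03 ± 0.06, Rnaseh2a, a subunit of RNase H2, -0.17 ± 0.13, and Acp5, a lysosomal acid phosphatase, 0.09 ± 0.06.

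The surface receptors closest to Cd180 and Ly86 are Tlr4 and its partner Ly96, which encodes MD-2. Ly96 had intensities of 549 ± 82.5 in tamoxifen cells and 350 ± 42.6 in untreated cells (SD, n = 3 each), with no overlap between the groups. Its log2 fold change was 0.61 ± 0.10 (SE, limma adjusted p = 0.227). Tlr4 measured 433 ± 63.3 in tamoxifen cells and 376 ± 149 in untreated cells (SD, n = 3 each), a log2 fold change of 0.25 ± 0.32 (SE), so that its difference was smaller than its standard error. Vav1, an exchange factor downstream of surface receptors of B cells, measured 0.39 ± 0.15. Of the 8 measured genes of this list 4 were positive, the median was 0.00 and limma called none. An unadjusted p under 0.05 was seen in 2, both positive, against 2.97% of all probe sets.

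**Figure D5:**
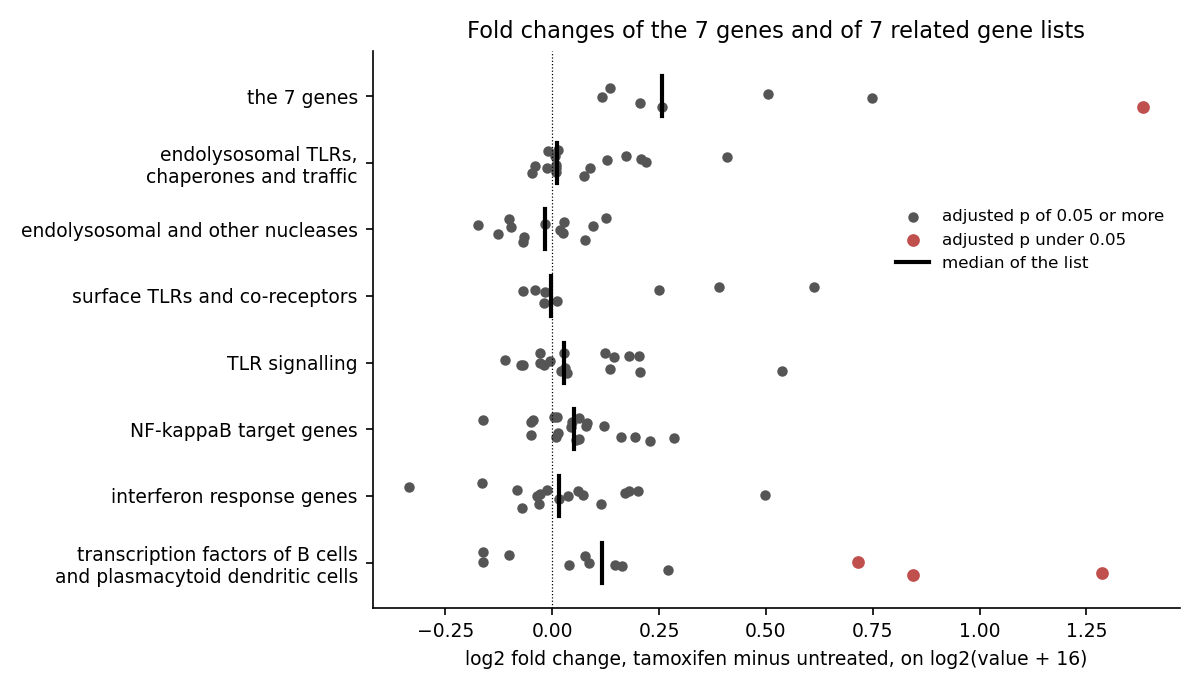
Log2 fold change (tamoxifen minus untreated, log2(value + 16) scale) of each measured gene in the group of 7 and in 7 related lists, with list medians as black bars and genes past the limma threshold in red. Calls are Pld4, and Spib, Bcl11a and Ets1 in the transcription factor list, while the other 6 lists have none and medians between -0.02 and 0.05.

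Signalling components and outputs of the receptors were mostly near 0. In the TLR signalling list 11 of 18 were positive (median 0.03) and limma called none. An unadjusted p under 0.05 was seen in 3, all positive, against 2.97% of all probe sets. These were Pik3ap1, the PI3K adaptor BCAP (0.54 ± 0.10, limma adjusted p = 0.34), Tab2, an adaptor of the kinase TAK1 (0.21 ± 0.06), and Ticam1, the adaptor TRIF (0.20 ± 0.07, log2 fold change, SE). Myd88, the adaptor of TLR7 and TLR9, measured -0.02 ± 0.08, Irak1, a kinase it recruits, 0.03 ± 0.06, and Irf7 and Irf5, transcription factors of interferon and cytokine induction, -0.01 ± 0.06 and 0.13 ± 0.09.

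NF-kappaB target genes had 16 of 20 positive values with a median of 0.05, and limma called none, with 0 at an unadjusted p under 0.05. Rel, an NF-kappaB subunit, measured 0.28 ± 0.18, Cd40, a costimulatory receptor, 0.16 ± 0.08, and Cd80, a ligand of T cell costimulation, -0.16 ± 0.07 (log2 fold change, SE). Nfkbia and Tnfaip3, feedback inhibitors of the pathway, measured 0.08 ± 0.10 and 0.08 ± 0.06. Interferon response genes had 9 of 17 positive values with a median of 0.01, and limma called none, with 1 positive and 1 negative at an unadjusted p under 0.05. Ddx58, the cytosolic RNA sensor RIG-I, measured 0.50 ± 0.12, Irf9, of the interferon-activated ISGF3 complex, 0.20 ± 0.08, and Ifit2, an interferon-induced RNA-binding protein, -0.33 ± 0.09, with limma adjusted p of 0.506, 0.982 and 0.671.

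No marker of another cell type passed the test. Of 46 measured markers of plasmacytoid dendritic, myeloid, T, NK, plasma and erythroid cells limma called 0. An unadjusted p under 0.05 was seen in 1, which was negative, against 2.14% of all probe sets with a negative value. On every array 10 of the 46 lay below the lower quartile and 7 above the median of all probe sets. Summed over 10 plasmacytoid dendritic cell markers, intensities were 813 to 929 in tamoxifen samples and 850 to 945 in untreated samples. Siglech, a defining receptor of these cells, measured 108 ± 6.09 in tamoxifen cells and 106 ± 2.02 in untreated cells (SD, n = 3 each), near the median of all probe sets. The sum of 15 myeloid markers was 1144 to 1189 in tamoxifen samples and 1092 to 1193 in untreated samples, with Lyz2, a defining myeloid gene, at 46.1 ± 2.77 in tamoxifen cells and 55.7 ± 9.22 in untreated cells (SD, n = 3 each). Sums over 13 T and NK cell markers were 798 to 938 in tamoxifen samples and 850 to 990 in untreated samples. Over 8 plasma cell and erythroid markers they were 1090 to 1247 in tamoxifen samples and 1096 to 1102 in untreated samples. Such sums weigh bright genes most, and in the last one Xbp1 alone measured 480 to 708 in tamoxifen samples and 476 to 499 in untreated samples.

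B lineage markers were higher in sum in the tamoxifen samples. This sum too weighs bright genes most, and Igll1, Vpreb1 and Ptprc had the highest means. The sum over 11 markers was 19729 to 20161 in tamoxifen samples and 16561 to 18485 in untreated samples, and 9 of the 11 log2 fold changes were positive (median 0.22), while limma called none. At an unadjusted p under 0.05, 6 were positive and 2 negative, against 2.97% and 2.14% of all probe sets. The lists were chosen with earlier results of these data known, so nothing is read from these counts. Cd79b, which signals for the B cell receptor, measured 0.52 ± 0.07, whereas Ebf1, a factor that specifies the B lineage, measured -0.51 ± 0.07 and Dntt, the terminal transferase of early lymphocytes, -1.26 ± 0.25 (log2 fold change, SE). Their part in the values of the 7 genes was not tested.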

How the data were processed

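Total RNA of 6 samples was labelled as biotinylated cRNA from 200 ng with a NuGen kit, per the labels' protocols. The table deposited by the authors gives an intensity (linear scale) for every probe set of each array, already summarised from probes. Background correction, normalization and scan batches are not stated in the labels. Titles gave the groups and replicate numbers.

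Values were taken as log2(value + 16), then quantile normalised. Tamoxifen and untreated samples were compared over all 34760 probe sets with lmFit and eBayes of limma 3.58.1 (R 4.3.3, two-sided, Benjamini-Hochberg, threshold 0.05), with no filter on dim probe sets. The log2(value + 16) scale understates changes of dim genes. The brightest probe set stood for a gene. The fit was tested on simulated data.

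Named were the 7 genes, Foxo1, up to 4 called genes of each pathway list or otherwise its 3 genes of lowest unadjusted p, and the 8 genes nearest to Pld4. Other list genes were picked with their values known. The members and lists were chosen with earlier results of these data known. Listed genes that no probe set named by a single symbol matched were not analysed here. Promoter sequences came from RefSeq (GRCm38.p6), and motifs were chosen after the expression values were seen. Alternatives were a replicate block, each array left out, other normalizations and pseudocounts, probe set filters, trend with robust eBayes, array weights and averaged probe sets. Figures were drawn with matplotlib 3.10.9.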

Additional observations from a re-analysis of the deposited data

How the results depend on the processing

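Of 117 values of the 7 genes under the alternatives, 117 were positive, but this count is no independent check of the sign. The replicate block, the probe set filters, trend with robust eBayes and averaged probe sets return the same log2 fold changes as the fit reported. The other alternatives refit the same arrays. Genes other than Pld4 did not pass in any alternative. The lowest limma adjusted p among these genes was 0.137, for Cd180 with the replicate number as a block. Its SE was 0.07 there, against 0.22 in the fit reported. Dim Tlr7 and Ly86 were left out by the filter at the median. With the replicate number as a block, 0 of the 7 genes and 0 of all probe sets passed limma (2525 at an unadjusted p under 0.05), and Pld4 had a log2 fold change of 1.38 with an adjusted p = 0.081. Deviations of same-numbered samples correlated at 0.256, 0.0547 and 0.302 for numbers 1, 2 and 3, and those of different-numbered samples at -0.42 to 0.25. These values do not settle whether the numbers pair the samples. The labels do not say either, so the fit reported used no block. With 1 array left out, the Pld4 log2 fold change ran from 1.34 to 1.44 and the count of the 7 genes past the threshold from 0 to 1. All probe sets past it then numbered 0 to 6, where at least 1360 had an unadjusted p under 0.05. Fewer samples enter those fits. Pld4 stayed past the threshold in the remaining 10 alternatives, from 1.14 with a pseudocount of 64 to 1.48 with a pseudocount of 1. Against 20 in the fit reported, all probe sets past the threshold numbered 11 with a pseudocount of 1, 12 with no further normalization, 12 with an intensity trend and robust eBayes together, 39 with array weights, 46 with probe sets below the median left out, 65 with probe sets paired with 1 gene and 73 with averaged probe sets. The signal of Tlr7 and Ly86, below the lower quartile of every array, limits what can be said of them.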
